A study of Mus musculus with 6 samples.

Results

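The genes described here are 38 members of the p53 response and of the machinery of apoptosis: p53 itself and its inhibitors, the BCL2 family, death receptors, mitochondrial release factors, and targets of p53 in growth arrest and DNA repair. Their probe sets were found by symbol, as every probe set whose single gene symbol in the platform annotation is one of the members. This gave 92 of the 45101 probe sets, for 35 of the 38 genes, among 18193 genes named in the series. Trp53, Bax and Bnip3l could not be matched to a probe set of 1 symbol and have no intensities here. A mean log2 intensity of at least 4 (an intensity of 16) over the 6 arrays was asked of a probe set before it was tested. Of the member probe sets 83 passed it, for 34 genes, and Bcl2 did not pass. Each gene is given by its brightest probe set, with other tested probe sets beside it.

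RNA came from Dicer -/- mouse embryonic stem cells of a line called 27H10 in the series title and 27H in the sample titles, kept undifferentiated and taken 24 h after transfection. Cells of 3 samples were given Dharmacon mimics of the mmu-miR-290 cluster, and cells of 3 control samples the siRNA siRL against Renilla luciferase, which has no intended target in a mouse cell. Cells of both groups lack Dicer, the enzyme that frees mature microRNAs from their hairpins, so the control cells carry the deletion too, and cells with Dicer are not part of the comparison. It is 1 line, and the labels do not say whether the replicates were separate cultures, so the p-values describe only how these samples vary, which can be technical variation. Each sample was read on 1 Affymetrix array, as a linear intensity per probe set. Their number limits the precision.

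The p53 protein is held low in unstressed cells by Mdm2, a ubiquitin ligase, and by its relative Mdm4. When DNA is damaged p53 is stabilised and switches on genes of cell cycle arrest, DNA repair and apoptosis. Apoptosis through mitochondria is decided in the BCL2 family: BH3-only proteins free or activate Bax and Bak1, which open the outer membrane, and antiapoptotic members such as Mcl1 and Bcl2l1 hold them back. Embryonic stem cells are known to enter apoptosis readily after DNA damage and to have a short G1 phase.

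Mature microRNAs of the 3p arms of the cluster are shown because mimics of the cluster were the treatment, although the labels do not list which of them were used. RefSeq sequences of GRCm38.p6 are given 5′ to 3′, all on the plus strand, from chr7:3218674-3218697 (miR-290a-3p) to chr7:3220815-3220837 (miR-295-3p). The capitals mark the seed, bases 2 to 8, which pairs with target transcripts.
miR-290a-3p: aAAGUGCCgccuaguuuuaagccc
miR-291a-3p: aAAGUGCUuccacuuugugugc
miR-291b-3p: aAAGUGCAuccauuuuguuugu
miR-293-3p: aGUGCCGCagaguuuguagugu
miR-294-3p: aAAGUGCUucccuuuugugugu
miR-295-3p: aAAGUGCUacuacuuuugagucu
The sequences used here held a 5p microRNA of miR-292a but no 3p one, so the 3p arms shown may not be all of the cluster. Of the 6 microRNAs of the 3p arm shown, 3 shared the seed AAGUGCU. The seed was AAGUGCC in miR-290a-3p, AAGUGCA in miR-291b-3p and GUGCCGC in miR-293-3p. The 7 microRNAs of the 5p arms have other seeds and are not shown. Matches of these seeds in transcripts of the members were not analysed here.

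The arrays differed little from each other. The median intensity per array was 41.7 to 44.9, and the correlation of log2 values was 0.963 to 0.969 within groups and 0.959 to 0.964 between them. Stem cell markers Pou5f1, Nanog, Sox2, Zfp42 and Dppa5a summed to 85442 to 90662 with the mimics and 81165 to 88930 with the control siRNA. Of these, Pou5f1 read 12449, 12474 and 11794 with the mimics, against 10964, 12609 and 10716 with the control siRNA. Nanog read 11424, 10219 and 11034 with the mimics, against 10908, 11561 and 11228 with the control siRNA, and Sox2 read 12078, 11502 and 12578 with the mimics, against 12689, 11638 and 12372 with the control siRNA. For all 3 of these genes the groups overlapped, as for Dppa5a. Zfp42 read 15404, 15833 and 15445 with the mimics, against 14044, 14662 and 14245 with the control siRNA, and its groups did not overlap. It did not pass (log2 fold change 0.12, limma adjusted p = 0.378 with a constant prior variance and 0.0840 with one that follows the signal level). Fibroblast and feeder markers (6) summed to 197 to 277 with the mimics and 238 to 255 with the control siRNA, with Col1a1, Col1a2, Col3a1 and Postn under the filter. Trophectoderm markers (4) summed to 155 to 236 with the mimics and 195 to 218 with the control siRNA, and the mesoderm marker Mixl1 lay at 43.1 to 50.2 with the mimics and 39.9 to 52.5 with the control siRNA. The neural markers Pax6 and Sox1 summed to 655 to 709 with the mimics and 633 to 706 with the control siRNA, and of these Sox1 was lower (−0.95, limma adjusted p = 0.0458 with a constant prior variance and 0.0569 with one that follows the signal level). Primitive endoderm markers (4) were dim and summed to 194 to 209 with the mimics and 99.5 to 181 with the control siRNA, so these sums did not overlap. Taken singly, only Sox7 had groups that did not overlap, and none of the 4 passed with either prior. The part of these markers in the results was not tested. The Dicer1 transcript read 1026, 1143 and 1090.4 with the mimics, against 1129, 1177 and 1137 with the control siRNA. Its probe set may lie outside the deletion, so this checks nothing about the cells.

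Most members differed little between cells with the mimics and cells with the control siRNA: 28 of 34 lay within 0.3 of 0 on the log2 scale. The largest differences were in Bak1, a pore-forming executioner of apoptosis, and Rrm2b, the p53-induced subunit of ribonucleotide reductase, which stood 1.76-fold and 1.53-fold lower with the mimics, and in Gadd45g, a growth arrest gene, which stood 1.45-fold higher. In bulk RNA, fewer cells that express a gene and less RNA per cell cannot be told apart. With limma and a constant prior variance, 0 of 34 members passed at a Benjamini-Hochberg adjusted p under 0.05 over all 29167 tested probe sets, where 1.38% of 13815 genes were lower and 0.456% higher. The smallest adjusted p of a member's brightest probe set was 0.0677 (Bak1), and 10 of 34 (29.4%) had an unadjusted p under 0.05 in limma, against 24.5% of all genes. When the prior variance of limma followed the signal level, with robust estimation (the level-dependent robust prior), 9 members passed: Bak1, Bcl2l11, Ei24, Perp, Polk and Rrm2b fell, and Gadd45g, Phlda3 and Aen rose. That is 17.6% lower and 8.82% higher, where 9.43% of all genes were lower and 6.2% higher with this prior. These shares, and those by role below, were not matched for signal level. A mean log2 of at least 6 was reached by 33 of the 34 members, against 10559 of 13815 genes. The part of signal level in the difference was not tested. Below, "rose" and "fell" are used of members that passed with this prior, and the adjusted p with the constant prior stands beside it.

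The median log2 fold change of the 34 members, mimics minus control, was −0.05, against −0.01 for all tested genes, and the median of its absolute value was 0.16 against 0.21. In 11 members all 3 mimic values lay below all 3 control values and in 5 they lay above, which is 32.4% and 14.7% of the members, against 19.3% and 16.2% of all genes. Asking for a mean log2 of at least 6 before the test with the constant prior left 33 members, of which 5 were lower (Bak1, Ei24, Perp, Polk and Rrm2b) and 1 was higher (Gadd45g), where 9.45% of all genes were lower and 4.95% higher. Leaving out each array in turn with the level-dependent robust prior, 4 to 7 members were lower and 0 to 3 were higher. It was 0 higher without mimic replicate 1, and 1 higher without control replicate 1 or control replicate 3, and only Bak1, Ei24 and Rrm2b of the 9 passed whichever array was left out.

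**Figure D1:**
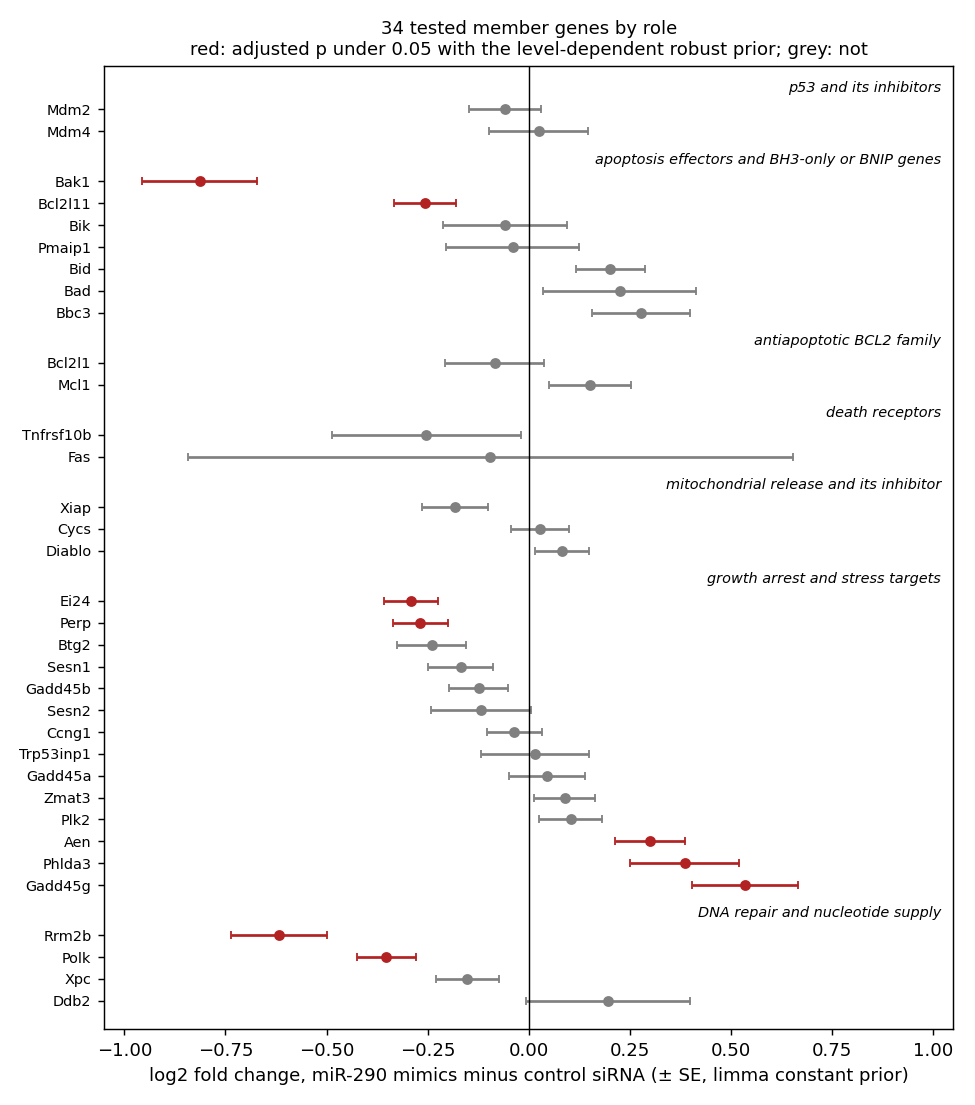
Log2 fold change of the brightest probe set of each of the 34 tested members, mimics minus control siRNA, with the standard error of the constant prior as bars, grouped by role. The 9 members in red, which passed with the level-dependent robust prior, are 6 on the lower side and 3 on the higher side, and the other 25 lie between −0.25 and 0.28.

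Among the inhibitors of p53, neither measured gene passed. Mdm2, itself a target of p53, read 1572, 1753 and 1731 with the mimics, against 1629, 1827 and 1811 with the control siRNA. The groups overlapped, and the log2 fold change was −0.06 with a 95% limma interval of −0.28 to 0.17 (adjusted p = 0.754 with the constant prior). A dimmer Mdm2 probe set gave 0.10. Mdm4, which binds and masks the activation domain of p53, read 908, 900.3 and 972 with the mimics, against 1006, 777 and 966 with the control siRNA, with a log2 fold change of 0.02 and an interval of −0.28 to 0.33 (limma adjusted p = 0.932). A change within these intervals is not excluded with 3 arrays a group, and the intervals are not limits of detection. Mdm4 gave 0.02 on a second probe set and 0.56 on a dim further one, whose groups did not overlap but which did not pass.

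Of 7 tested genes of the apoptosis effectors and BH3-only group, 2 fell (28.6%) and 0 rose, against the 9.43% lower and 6.2% higher of all genes with this prior. Bak1 gave intensities of 198, 273 and 247 with the mimics, against 392, 414 and 446 with the control siRNA. All 3 mimic arrays lay below all 3 control arrays. The means were 239 ± 37.8 with the mimics and 417 ± 26.9 with the control siRNA (SD, n = 3 each), a log2 fold change of −0.81 ± 0.14 SE (limma adjusted p = 0.00318 with the level-dependent robust prior and 0.0677 with the constant prior). A dimmer Bak1 probe set gave 82.4, 65.7 and 49.0 with the mimics, against 122, 105 and 124 with the control siRNA. It also fell, with a log2 fold change of −0.86 ± 0.21 SE (limma adjusted p = 0.0442 and 0.112 in the same order of priors), though with the first prior it passed in only 1 of 6 cases when an array was left out (0.0373 to 0.138).

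Bcl2l11, which encodes Bim, a BH3-only protein that binds all antiapoptotic family members, read 4290.5, 4384 and 4595 with the mimics, against 5382, 5479 and 4993 with the control siRNA on its brightest probe set. The groups did not overlap, and the log2 fold change was −0.26 ± 0.077 SE (limma adjusted p = 0.0115 with the level-dependent robust prior and 0.158 with the constant prior). Without mimic replicate 1 the adjusted p with the level-dependent robust prior was 0.0596. A second Bcl2l11 probe set read 1411, 1320.3 and 1505 with the mimics, against 1766, 1945 and 1825 with the control siRNA, with a log2 fold change of −0.39 ± 0.086 SE (limma adjusted p = 0.00515 and 0.0964). The 3 dimmer ones did not pass, at −0.01, −0.29 and 0.07, so the probe sets of Bcl2l11 disagreed.

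The other BH3-only genes did not pass with either prior. Bbc3, which encodes Puma, read 378, 390.1 and 422 with the mimics, against 379, 314 and 294 with the control siRNA, a log2 fold change of 0.28 with an interval of −0.03 to 0.58. Control replicate 1 lay above the lowest mimic array. Pmaip1, which encodes Noxa, read 452, 440.2 and 475 with the mimics, against 555, 372 and 497 with the control siRNA, where the mimic values lay inside the range of the control values (−0.04, interval −0.45 to 0.38). Bid, which links death receptors to mitochondria once caspase-8 cleaves it, read 1166, 1202 and 1094 with the mimics, against 1060.2, 1017 and 934 with the control siRNA; its groups did not overlap (0.20, limma adjusted p = 0.129 with the level-dependent robust prior). Dimmer Bid probe sets gave 0.14 and 0.58. Bad, which binds Bcl2l1, gave 0.22 and, on a second probe set, −0.01. Bik, a BH3-only protein of the endoplasmic reticulum, gave −0.06 on its brightest probe set and −0.38 and −0.35 on dimmer ones. On the last of these all mimic values lay below all control values, and none of the Bik probe sets passed. Thus Puma and Noxa transcripts, which p53 induces directly, showed no passing difference, while Bak1 and Bim transcripts fell with the level-dependent robust prior.

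**Figure D2:**
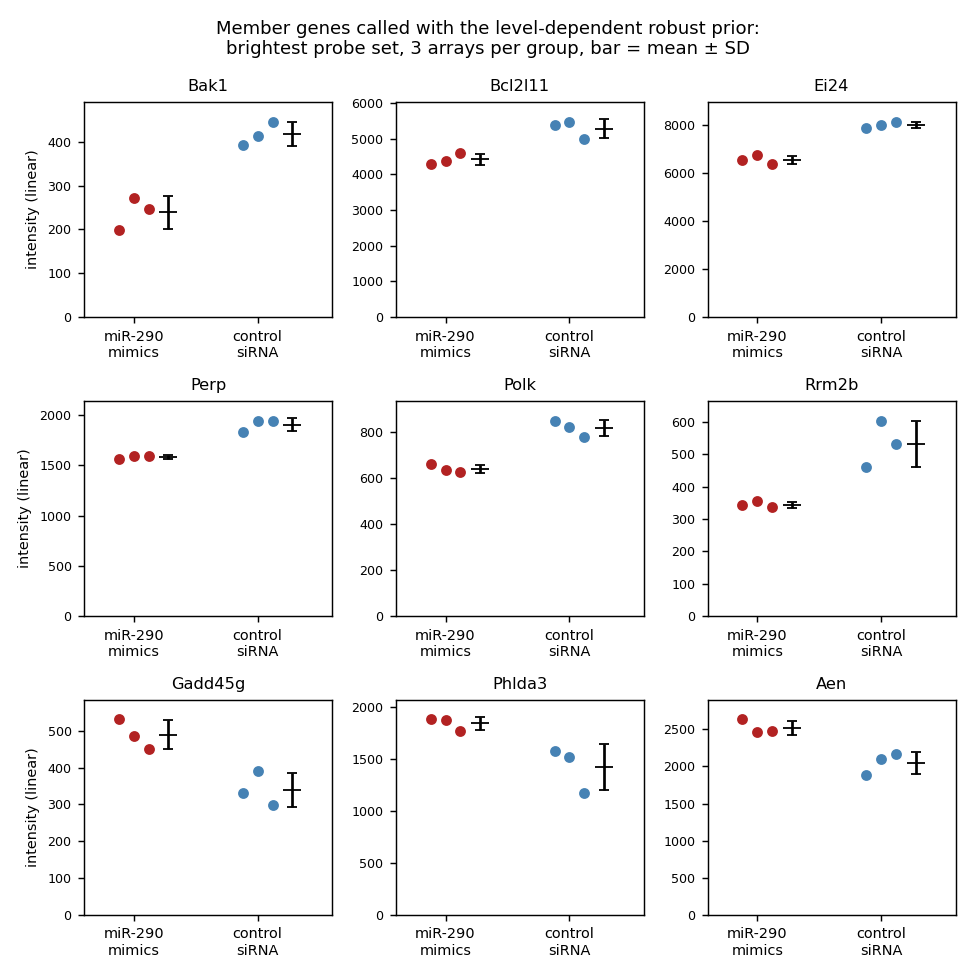
Linear intensity on each array for the 9 members that passed with the level-dependent robust prior, mimics at the left and control siRNA at the right of each panel, with the mean and SD beside the points. In all 9 the points of the groups do not overlap, and in Bak1 and Rrm2b the gap between groups is widest relative to the level.

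Of the antiapoptotic genes, Mcl1 and Bcl2l1 were tested and neither passed on its brightest probe set. Mcl1, a short-lived protein that restrains Bak1, read 11101, 9467 and 10831 with the mimics, against 9469, 10029 and 8734 with the control siRNA there, with overlapping groups and a log2 fold change of 0.15 ± 0.10 SE (limma adjusted p = 0.191 with the level-dependent robust prior and 0.462 with the constant prior). Its other probe sets pointed the other way. Probe set 2 read 7306, 7357 and 7393 with the mimics, against 8355, 8744 and 9104 with the control siRNA, and all mimic values lay below all control values (−0.25 ± 0.070 SE, limma adjusted p = 0.00639 with the level-dependent robust prior). Probe sets 3, 4 and 5 in order of brightness gave −0.24, −0.19 and −0.27, with limma adjusted p of 0.0116, 0.0457 and 0.00499 with that prior, and probe set 6, at −0.09, missed the threshold. With the constant prior none of the 6 passed, at adjusted p from 0.121 to 0.543. Probe set 4 passed in only 1 of 6 cases when an array was left out (0.0192 to 0.177), and probe set 3 did not pass without control replicate 3 (limma adjusted p = 0.0513). Probe sets 2, 3 and 4 are of the type whose probes can match other transcripts (_x_at). The direction for Mcl1 therefore depends on the probe set: 4 of 6 fell with the level-dependent robust prior, and the brightest stood higher without passing.

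Bcl2l1, which encodes Bcl-xL, read 625, 675 and 661 with the mimics, against 589, 751 and 749.8 with the control siRNA, with overlapping groups and a log2 fold change of −0.08 (interval −0.39 to 0.23). Its dimmer tested probe sets gave −0.57 and 0.22 and did not pass. All 5 probe sets of Bcl2, the founding member of the family, were under the filter. The brightest read 21.7, 8.60 and 12.3 with the mimics, against 24.0, 13.9 and 13.4 with the control siRNA, a level that cannot be told from background here.

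**Figure D3:**
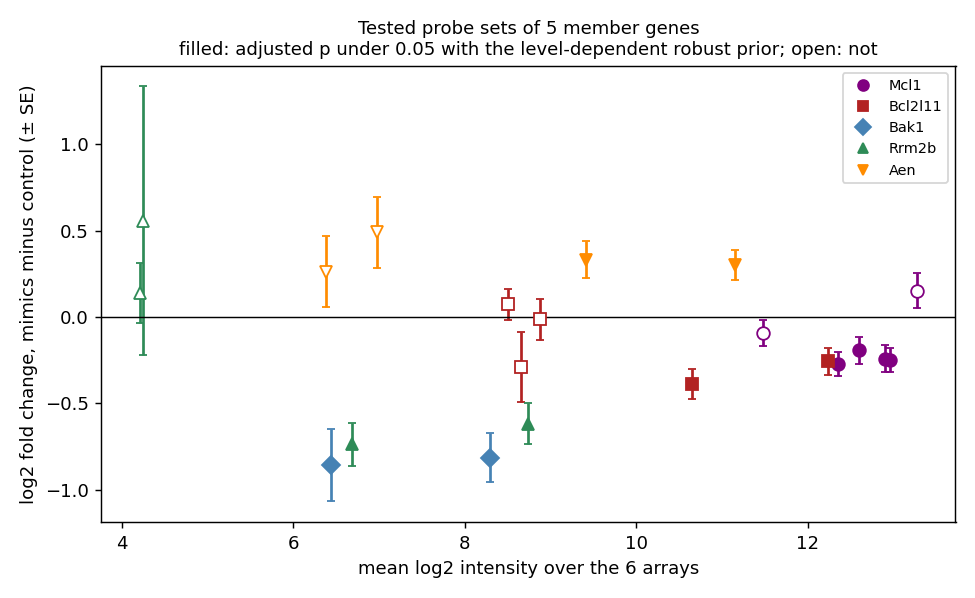
Log2 fold change (mimics minus control siRNA, ± SE with the constant prior) of each tested probe set of Mcl1, Bcl2l11, Bak1, Rrm2b and Aen against its mean log2 intensity. Filled marks passed with the level-dependent robust prior: 4 of the 6 Mcl1 marks are filled and lie below 0 while the brightest, open, lies above it, and both Bak1 marks are filled and lie below 0.

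The death receptor genes were dim and did not pass. Fas, a receptor that p53 induces, read 13.2, 24.3 and 12.4 with the mimics, against 5.60, 31.4 and 27.6 with the control siRNA. These values lie around the filter and spread widely within both groups. The interval of −1.99 to 1.80 on the log2 scale does not exclude a difference in either direction. Tnfrsf10b, the mouse receptor of the ligand TRAIL, read 78.0, 112 and 89.5 with the mimics, against 82.7, 133 and 119.7 with the control siRNA (−0.25, limma adjusted p = 0.591 with the constant prior). Its groups overlapped, and a second probe set gave −0.22.

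Genes of the step after membrane opening did not pass either. Cycs, which encodes cytochrome c, the protein that starts assembly of the apoptosome, read 26916, 25157 and 27238 with the mimics, against 26148, 25239.8 and 26404 with the control siRNA, and its difference of 0.03 had a narrow interval of −0.15 to 0.21. Further Cycs probe sets gave 0.06 and −0.00, and the dimmest −0.68. Diablo, which relieves the inhibitors of caspases, read 2038, 2007 and 1975 with the mimics, against 1944, 1886 and 1856 with the control siRNA (0.08, interval −0.08 to 0.25), with −0.16 on a dim second probe set. Xiap, which binds and blocks caspases, read 1665, 1627 and 1649.5 with the mimics, against 1979, 1728 and 1909 with the control siRNA (−0.18, limma adjusted p = 0.115 with the level-dependent robust prior). For both Diablo and Xiap the groups did not overlap, with Diablo above and Xiap below in the mimic arrays. The 6 dimmer Xiap probe sets gave values between −0.05 and 0.35 and none passed.

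Of 14 growth arrest and stress genes, 3 rose (21.4%, against 6.2% of all genes) and 2 fell (14.3%, against 9.43%). Gadd45g, which binds stress kinase activators and cell cycle proteins, had 1 probe set and read 531, 487 and 451 with the mimics, against 330.2, 390.1 and 297 with the control siRNA. The lowest mimic value lay above the highest control value. The means were 489 ± 39.9 with the mimics and 339 ± 47.2 with the control siRNA (SD, n = 3 each), a log2 fold change of 0.53 ± 0.13 SE (limma adjusted p = 0.0169 with the level-dependent robust prior and 0.113 with the constant prior). With the first of these priors it did not pass without mimic replicate 1, control replicate 1 or control replicate 3 (adjusted p = 0.0771, 0.0560 and 0.0688 in limma).

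Its relatives did not follow it past the threshold. Gadd45a, a direct p53 target, read 2251, 2237 and 2213 with the mimics, against 2416, 2096 and 2008 with the control siRNA (0.04, interval −0.19 to 0.28). Gadd45b read 1656, 1686 and 1587 with the mimics, against 1873, 1733 and 1763 with the control siRNA (−0.12, limma adjusted p = 0.267 with the level-dependent robust prior), with the mimic values all lower, and gave −0.10 and −0.16 on dimmer probe sets. The difference between the 3 relatives was not tested.

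Phlda3, a pleckstrin homology protein that p53 induces and that competes with Akt for membrane lipids, read 1885, 1884 and 1773 with the mimics, against 1582, 1519 and 1174 with the control siRNA. It rose, with a log2 fold change of 0.39 ± 0.14 SE (limma adjusted p = 0.0287 with the level-dependent robust prior and 0.206 with the constant prior). Control replicate 3 was the lowest of the control values, and without it the log2 fold change was 0.25 (adjusted p = 0.0646). Phlda3 also did not pass without mimic replicate 1, 2 or 3 (limma adjusted p = 0.0958, 0.0849 and 0.0518). Aen, an exonuclease induced by p53 that acts in the nucleus during apoptosis, read 2633, 2462 and 2476 with the mimics, against 1886, 2095 and 2173 with the control siRNA. It rose on 2 probe sets, with log2 fold changes of 0.30 ± 0.087 SE and 0.33 ± 0.11 SE (limma adjusted p = 0.0144 and 0.0496 with the level-dependent robust prior, 0.149 and 0.178 with the constant prior). The 2 dimmest gave 0.49 and 0.26 and did not pass. The brightest did not pass without mimic replicate 1 (0.0720) or control replicate 1 (0.0585 in limma), and the next passed in 1 of 6 such cases (0.0281 to 0.170).

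Ei24, an endoplasmic reticulum protein first found as a p53-induced gene, read 6535, 6745 and 6403 with the mimics, against 7883, 8031 and 8155 with the control siRNA. The groups lay far apart relative to their spread, at 6561 ± 172 with the mimics and 8023 ± 136 with the control siRNA (SD, n = 3 each). The log2 fold change was −0.29 ± 0.067 SE (limma adjusted p = 0.00223 with the level-dependent robust prior, which held whichever array was left out, and 0.101 with the constant prior). Perp, a tetraspan membrane protein of desmosomes that p53 and p63 induce, read 1561, 1589 and 1598 with the mimics, against 1835, 1941 and 1947 with the control siRNA. It fell to a similar extent, with a log2 fold change of −0.27 ± 0.068 SE (limma adjusted p = 0.0150 and 0.120), and did not pass without mimic replicate 1 (0.0642) or control replicate 3 (0.0587). Both had 1 probe set.

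The other 9 genes of this group did not pass and lay between −0.24 (Btg2) and 0.10 (Plk2) on the log2 scale. Btg2, an antiproliferative p53 target, read 1107, 1179 and 1223 with the mimics, against 1319, 1349 and 1477 with the control siRNA, and its groups did not overlap (limma adjusted p = 0.0597 with the level-dependent robust prior), although a second probe set gave 0.08. Ccng1, a cyclin that p53 induces and that recruits a phosphatase to Mdm2, read 14150.4, 13721 and 14053 with the mimics, against 14755, 13833 and 14387 with the control siRNA (−0.04, interval −0.21 to 0.14). Its second probe set read 7922, 7495 and 7352 with the mimics, against 6884, 7203 and 6457 with the control siRNA, with all mimic values higher, and did not pass (0.15, limma adjusted p = 0.109 with the level-dependent robust prior), and the third gave 0.05. Trp53inp1, a nuclear and autophagy protein induced by p53, read 10686, 7834 and 9548 with the mimics, against 9619, 9045 and 8895 with the control siRNA (0.02), and a dimmer probe set gave 0.46 with overlapping groups. The sestrin genes Sesn1 and Sesn2, stress proteins that restrain mTOR complex 1, gave −0.17 and −0.12, but their second probe sets gave 0.54 and 0.44, and 2 dimmer ones of Sesn1 gave −0.23 and 0.45. None of these passed, and the direction of Ccng1, Sesn1 and Sesn2 depends on the probe set. Zmat3, an RNA-binding p53 target, gave 0.09, and the polo-like kinase gene Plk2 gave 0.10. Among the established p53 targets of this group, then, Phlda3 and Aen rose and Ei24 and Perp fell, while Ccng1, Trp53inp1 and Gadd45a passed on no probe set.

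**Figure D4:**
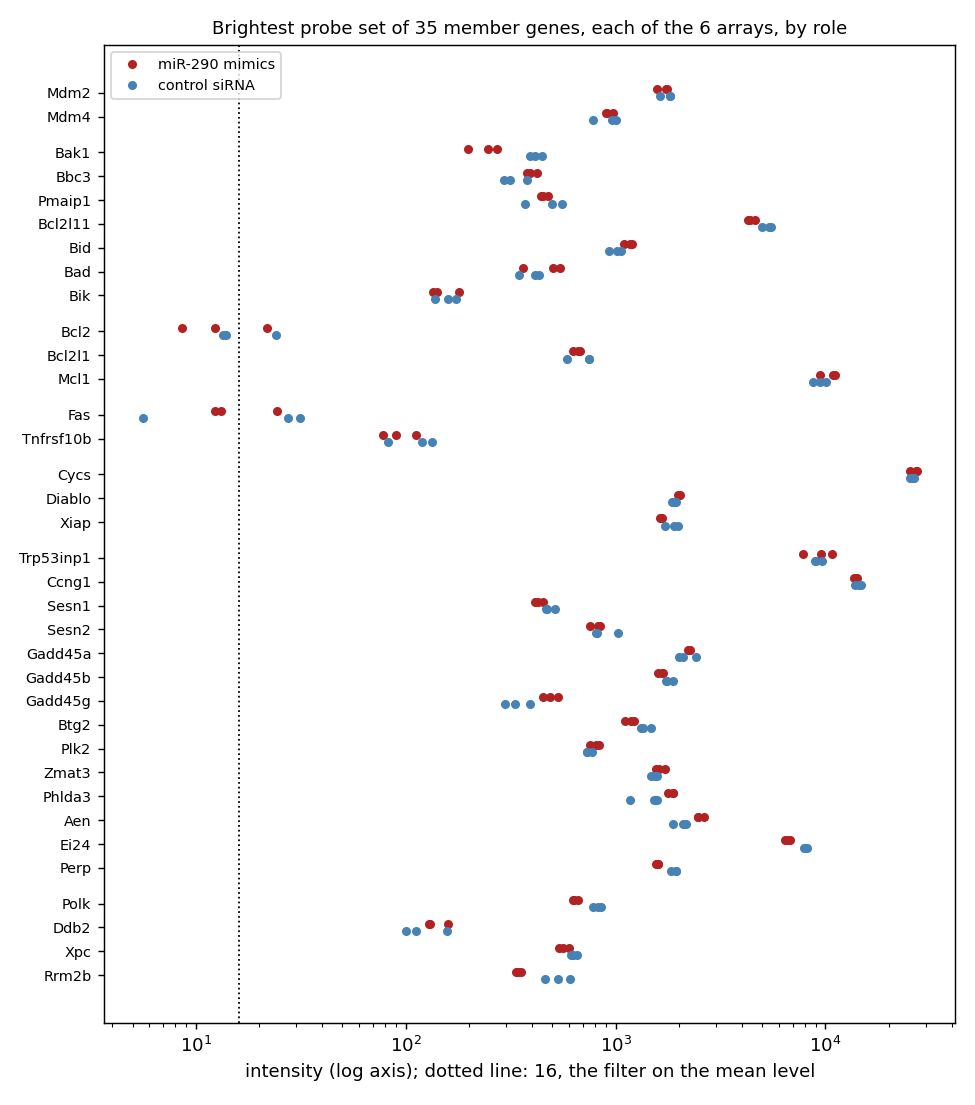
Intensity of the brightest probe set of 35 members on each array, on a log axis, with miR-290 mimics above control siRNA in each row and rows in order of role; levels are not comparable between genes. Bcl2 and Fas lie around the filter at 16, and in 16 of the 34 tested rows the groups do not overlap.

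Of the 4 genes of DNA repair and nucleotide supply, 2 fell (50%, against 9.43% of all genes) and 0 rose. Rrm2b supplies deoxynucleotides for repair outside S phase and read 344, 354 and 335 with the mimics, against 459, 604 and 532 with the control siRNA. The mimic values were tightly grouped and all lower. The means were 344 ± 9.29 with the mimics and 532 ± 72.4 with the control siRNA (SD, n = 3 each), a log2 fold change of −0.62 ± 0.12 SE (limma adjusted p = 0.00573 with the level-dependent robust prior and 0.0758 with the constant prior). A dimmer Rrm2b probe set read 90.2, 68.4 and 82.7 with the mimics, against 134, 138 and 128 with the control siRNA. It fell too, at −0.74 ± 0.12 SE (limma adjusted p = 0.0353 and 0.0639), but passed in 0 of 6 cases when an array was left out (0.0529 to 0.104). The other 2 probe sets were near the filter and gave 0.56 and 0.14.

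Polk, the polymerase kappa that copies past damaged bases, read 661, 632 and 625 with the mimics, against 849, 823 and 777 with the control siRNA. It fell, with a log2 fold change of −0.35 ± 0.074 SE (limma adjusted p = 0.0164 with the level-dependent robust prior and 0.0866 with the constant prior), and did not pass without mimic replicate 3 (0.0512) or control replicate 1 (0.0665). A second, dim probe set of Polk stood at −0.07. The damage sensors of nucleotide excision repair did not pass. Xpc read 541, 563 and 599 with the mimics, against 611, 654 and 626 with the control siRNA, all mimic values being lower (−0.15, limma adjusted p = 0.329 with the level-dependent robust prior), and Ddb2 read 129.9, 129 and 158 with the mimics, against 158, 112 and 100.1 with the control siRNA, with overlapping groups (0.20; −0.17 on a second probe set).

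Promoters of the members that moved were searched for the p53 half-site, a consensus of 10 bases of which p53 binds a pair, because most of these genes were listed as p53 targets. The windows ran from 250 bases before to 50 after a start site in RefSeq, GRCm38.p6, and the consensus reads the same on both strands. Of the 9 members that passed, Aen, Ei24 and Polk had a half-site in a window, and Bak1, Bcl2l11, Gadd45g and Phlda3 had none; Perp and Rrm2b were not analysed for it. Among all members 10 of 40 windows (25%), of 28 genes, held a half-site, against 8.36% of 32851 windows of all genes; 0 of the 40 and 0.0731% of all held a pair up to 13 bases apart. The 10 windows hold 9 distinct sites in 9 genes, because 2 overlapping windows of Aen share 1 site. Among them are Trp53 and Bax, which have no intensities here, and without these genes it was 8 of 38 windows (21.1%). The members include genes picked as p53 targets, so this share is a description. The windows of Aen (chr7:78895808-78896107, plus strand), Ei24 (chr9:36797285-36797584, minus strand) and Polk (chr13:96519138-96519437, minus strand, 1 of 2 windows) are shown 5′ to 3′ with the half-site in capitals.
Aen: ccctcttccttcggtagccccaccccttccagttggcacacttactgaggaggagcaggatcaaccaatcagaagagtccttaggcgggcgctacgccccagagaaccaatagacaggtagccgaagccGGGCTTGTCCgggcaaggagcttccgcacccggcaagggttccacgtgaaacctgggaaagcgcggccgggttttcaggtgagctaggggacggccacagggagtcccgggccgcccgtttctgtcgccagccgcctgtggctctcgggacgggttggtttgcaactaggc
Ei24: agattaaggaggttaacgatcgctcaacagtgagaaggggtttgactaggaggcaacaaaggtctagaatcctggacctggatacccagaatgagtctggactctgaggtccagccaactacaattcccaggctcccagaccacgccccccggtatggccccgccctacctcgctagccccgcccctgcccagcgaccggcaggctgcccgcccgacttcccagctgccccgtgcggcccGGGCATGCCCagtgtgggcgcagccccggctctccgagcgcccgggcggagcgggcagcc
Polk: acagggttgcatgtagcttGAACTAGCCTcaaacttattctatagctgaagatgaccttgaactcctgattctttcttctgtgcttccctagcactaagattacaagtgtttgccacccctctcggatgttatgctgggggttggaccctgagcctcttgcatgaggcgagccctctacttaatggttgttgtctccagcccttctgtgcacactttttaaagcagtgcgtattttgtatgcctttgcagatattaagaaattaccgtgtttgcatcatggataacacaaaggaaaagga
Aen, which rose, and Ei24 and Polk, which fell, thus all had a match of the consensus in a window, with different letters in each. For Polk the other window, at a start site further upstream, held 0 half-sites. A match of letters is neither a site in use nor a cause.

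A wider list of 75 symbols, 2 of them older symbols of other entries, held further genes of the p53 pathway and of apoptosis, without caspases, and 68 of them were tested. With the constant prior 1 fell and 0 rose (17, or 25%, had an unadjusted p under 0.05 in limma, against 24.5% of all genes), and with the level-dependent robust prior 5 fell and 6 rose. With 1 array left out, these counts with the level-dependent robust prior were 1 to 4 and 1 to 3. On all arrays these are 7.35% and 8.82% of the 68, against the 9.43% and 6.2% of all genes given above. The median log2 fold change was −0.02. The gene that passed with both priors was Cdkn1a, the p53-induced inhibitor of cyclin-dependent kinases, with 2672, 2719 and 2644 with the mimics, against 4989.8, 4932 and 4597 with the control siRNA (−0.85 ± 0.071 SE, limma adjusted p = 6.06e-06 with the level-dependent robust prior and 0.0287 with the constant prior). Leaving out any 1 array ended the constant-prior call of Cdkn1a (adjusted p = 0.112 to 0.136 in limma), whereas its call with the level-dependent robust prior held in all 6 cases. The loss was not particular to Cdkn1a. With the constant prior and 1 array left out, 0 of 29167 probe sets passed, or 1 without control replicate 3.

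Of 21 modifiers and partners of p53, 1 fell and 1 rose, 4.76% each, below the 9.43% and 6.2% of all genes. Ppm1d, a phosphatase that p53 induces and that removes activating phosphates from p53, read 953, 969 and 860.3 with the mimics, against 1132, 1195 and 1222 with the control siRNA (−0.35, limma adjusted p = 0.0124 with the level-dependent robust prior; 0.0531 without control replicate 3). Rchy1, a ubiquitin ligase for p53, was the one that rose (0.23). Of 24 further p53 targets, 3 fell and 3 rose, 12.5% each. Besides Cdkn1a, the lysosomal gene Dram1 read 67.1, 54.5 and 59.6 with the mimics, against 121, 107 and 90.8 with the control siRNA (−0.81, limma adjusted p = 0.0447 with that prior, which was lost whichever array was left out, at 0.0682 to 0.154). The chaperone gene Hspa4l read 150.0, 135 and 222 with the mimics, against 240.1, 269.8 and 264 with the control siRNA on its brightest probe set. It fell there (−0.64) and on the second (−1.16), where it also passed with the constant prior (limma adjusted p = 0.0457). Aifm2, an oxidoreductase that protects membranes from lipid peroxidation, read 154, 173 and 169 with the mimics, against 103, 118 and 99.7 with the control siRNA (0.63, limma adjusted p = 0.0363). Its probe sets disagreed: the second gave 0.00056, with overlapping groups, and the dimmest 1.42 (limma adjusted p = 0.0422 with that prior). With Aifm2, Ckap2 (0.22) and the ribosomal protein gene Rps27l (0.17) made up the 3 that rose.

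Of 23 further apoptosis regulators, 1 fell (4.35%) and 2 rose (8.70%). Birc3, a ubiquitin ligase of the inhibitor of apoptosis family, read 199, 146 and 180.0 with the mimics, against 269, 267 and 283 with the control siRNA (−0.66, limma adjusted p = 0.0163 with the level-dependent robust prior). Birc5, or survivin, which acts in cell division and is usually abundant in dividing cells, read 8916, 9022 and 8549 with the mimics, against 7556, 7419 and 7417 with the control siRNA (0.24, limma adjusted p = 0.00547, held whichever array was left out). Htra2, a mitochondrial protease, read 900.3, 965 and 1041 with the mimics, against 831, 696 and 692 with the control siRNA (0.39, limma adjusted p = 0.0211). With the level-dependent robust prior, Hspa4l and Aifm2 passed in 1 of 6 cases when an array was left out (0.00988 to 0.144 and 0.0417 to 0.109), Htra2 in 2 (0.0149 to 0.0824) and Birc3 in 3 (0.0212 to 0.0650). Casp2, an initiator caspase that acts downstream of p53, read 1182, 1216 and 1182 with the mimics, against 2546, 2774 and 2834 with the control siRNA (−1.19, limma adjusted p = 0.0231 with the constant prior and 0.0991 to 0.135 when 1 array was left out; with the level-dependent robust prior it passed in all 6 such cases). That is a larger difference than in any tested member probe set. As for Cdkn1a, the loss of the constant-prior call with 1 array left out was not particular to Casp2.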

How the data were processed

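RNA of 6 samples was read on 6 arrays, and the authors deposited a linear intensity for each probe set. The submitters' processing notes name GCRMA, but the intensities run to 46765. The mean of an array without its lowest and highest 2%, averaged over the 6 arrays, is 500. What made the intensities is therefore not settled, and background correction is not given in the sources used here. They were log2-transformed with no offset and not normalized again. Control probe sets (64) and 15870 with a mean log2 under 4 were left out. Differences were tested over the remaining 29167 with limma 3.58.1 in R 4.3.3 (lmFit, eBayes, 2-sided, no covariates), adjusted by Benjamini-Hochberg over all of them, at 0.05. Log2 fold changes are mimics minus control.

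Names came from the platform annotation (34958 probe sets with 1 symbol, 932 with several, 9211 not listed). On simulated arrays of 29167 probe sets the constant prior recovered 14% of 1.5-fold and 52% of 2-fold changes, and the level-dependent robust prior 22% and 58%. Unchanged probe sets gave 5 false calls with the constant prior and 4 with the other. Each size of change was given to 50 probe sets drawn at all levels, so these rates do not describe the members.

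All 38 members were to be accounted for by role. Named with array values were those passing with either prior, and, of the wider list, the 8 with the largest change among those passing, as well as Dicer1, Pou5f1, Nanog, Sox2, Cdkn1a and Casp2; other values were chosen after they were seen. Members and lists were chosen with earlier results of these data known.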

Additional observations from a re-analysis of the deposited data

How the results depend on the processing

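With the constant prior 0 members were lower and 0 higher, also with median centring, quantile normalization, an offset of 16, no filter, any probe set of the gene, and without each array in turn. With no filter, however, 0 of 45037 probe sets passed at all. With 1 array left out 0 of 29167 passed with this prior, or 1 without control replicate 3. Counts of 0 for members or the wider list in these settings therefore say nothing particular to these genes. The level-dependent robust prior gave 6 lower and 3 higher (4 to 7 and 0 to 3 without 1 array), and a filter at a mean log2 of 6 gave 5 and 1. In the wider list 1 gene was lower and 0 were higher with the constant prior, 5 and 6 with the level-dependent robust prior (1 to 4 and 1 to 3 without 1 array), 5 and 2 with the filter at 6, 0 lower with no filter, 2 lower with any probe set, and 0 lower whichever array was left out. The filter at 6 tests fewer probe sets; other causes were not tested. With the replicate number as a block, 0 members and 0 genes of the wider list passed, and 0 of 29167 probe sets against 376 without it. The block adds terms to the fit, which leaves less to estimate the variance from. Same-numbered arrays correlated at −0.01, 0.01 and 0.02 in their deviations, so no pairing by number was seen. The labels do not say whether the arrays were paired. Over 30 named probe sets and their alternatives, 425 of 570 values kept direction and side of the threshold, and 123 passed in addition. Most of these probe sets were named because they passed with the level-dependent robust prior, so passing with it was set by that choice. Only those of Cdkn1a and Casp2 passed with the constant prior on all arrays, so for the others keeping the side means still not passing. The tally is therefore no measure of robustness. The 16 values that no longer passed (Cdkn1a and Casp2) came with no filter, the block or 1 array left out, with the constant prior. A further 6 changed sign. Those were Nanog with median centring (0.0011) and Sox2 with median centring (0.025) and, with both priors, without mimic replicate 2 (0.012) or control replicate 1 (0.0055; −0.057 to 0.012 without 1 array), on the log2 scale and far from passing. With 3 arrays a group and no detection calls, small changes and values near 16 are not resolved.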
